A study of Mus musculus with 43 samples.

Results

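The transcripts of 5 genes that glucocorticoid hormones are known to induce, Tsc22d3, Zbtb16, Klf9, Errfi1 and Sult1a1, were followed in the hypothalamus of fed and fasted mice. The members were the rows of the expression table whose Ensembl identifier maps to 1 of these symbols, and all 5 were found among 10127 genes. The choice of these 5 genes was made with earlier results of these data known. The metallothionein genes, which respond to the same hormones and also to metal ions, were not members. The RNA came from adult male mice of the C57BL/6J background (C57/BL6 in the labels) with a congenital paternal deletion of the Snord116 cluster (Snord116+/-P), an imprinted cluster of small nucleolar RNAs that is normally expressed from the paternal allele. Every mouse of both groups carried the deletion, so the comparison was between nutritional states within 1 genotype, and wild-type mice were not analysed here. Fasted mice had no food for 24 hours and fed mice ate ad libitum. Each of 4 hypothalamic nuclei was cut out by laser-capture microdissection, namely the paraventricular nucleus (PVN), the arcuate nucleus (ARC), and the ventromedial (VMH) and dorsomedial (DMH) hypothalamus. A mouse gave 1 library per nucleus, and 12 mice (6 fasted and 6 fed) gave the 41 libraries analysed, in 3 batches. Mice are named by state and number, as in Fast-86 and Fed-308.

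Corticosterone, the main glucocorticoid of the mouse, enters cells and binds the glucocorticoid receptor, which then moves to the nucleus and acts on genes that carry its binding sequence. Food deprivation is known to raise circulating corticosterone in rodents, and the PVN holds the neurons that start the hormonal cascade towards the adrenal gland. Tsc22d3 encodes GILZ, a leucine zipper protein that restrains inflammatory transcription factors. Zbtb16 encodes PLZF, a zinc finger repressor with a BTB domain, and Klf9 encodes a Krüppel-like zinc finger factor that is also induced by thyroid hormone. Errfi1 encodes MIG6, a feedback inhibitor of the epidermal growth factor receptor family. Sult1a1 encodes a cytosolic sulfotransferase that transfers sulfate to phenols, catecholamines among them. Corticosterone was not measured in these files, and the values below are transcript levels.

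Library depth, read from the smallest steps of the deposited values, was 1.94 to 8.23 M reads with a median of 4.10 M. Values are CPM, read counts scaled to the total of the library, and at the median depth 1 CPM stands for 4.10 reads. The nuclei carried their markers. Npy was at least 194.5 CPM in ARC libraries and at most 33.4 CPM elsewhere, and Avp was at least 395.2 CPM in PVN and at most 10.04 CPM elsewhere. The lowest DMH value of Npvf was 56.5 CPM against at most 6.30 CPM elsewhere, and the lowest VMH value of Fezf1 was 172.03 CPM against at most 21.9 CPM elsewhere. Batch 1 had the fewest libraries, 10, with 1 per state in each of PVN and ARC. Mouse Fast-85 and mouse Fed-92, both of batch 1, each had 1 library analysed, from VMH and DMH respectively, and their PVN samples are the 2 that were not analysed here.

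In the GRCm38 build and the GENCODE M21 annotation, each member is a protein-coding gene. Tsc22d3 (ENSMUSG00000031431) lies on the minus strand at chrX:140539528-140600659 and Zbtb16 (ENSMUSG00000066687) on the minus strand at chr9:48654297-48836222. Klf9 (ENSMUSG00000033863) lies on the plus strand at chr19:23141226-23168134, with the microRNA gene Mir1192 inside its span. Errfi1 (ENSMUSG00000028967) lies on the plus strand at chr4:150853919-150868892 and shares part of its span with 1700045H11Rik, which was not analysed here. Sult1a1 (ENSMUSG00000030711), on the minus strand at chr7:126672865-126676432, overlaps the end of Sgf29, which runs on the plus strand at chr7:126649309-126672925. Whether reads were assigned by strand is not given in the sources used here, so reads from the shared stretch may count for either gene. Sgf29 itself did not pass the test between states, with a log2 change of -0.02 ± 0.20 (SE, adjusted p = 0.984) and a mean of 10.6 CPM in both states.

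Because the glucocorticoid receptor binds a palindrome of paired half-sites, the 250 bases before the transcription start were searched in the members. RefSeq promoter windows on GRCm38.p6 were held for 4 of the 5 members, as 7 windows. The letters searched were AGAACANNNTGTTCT (the full palindrome), ACANNNTGT (its centre, contained in the full palindrome) and the half-site AGAACA on either strand, which reads TGTTCT on the other strand. No member window held the full palindrome, which 0.00913% of 32851 mouse windows held, or its centre, which 5.84% held. The half-site was in 16.1% of all windows. Sult1a1 held it at 34 and, on the other strand, at 212 bases before its start, and 1 of the 3 Tsc22d3 windows held it at 185 bases before the start. Below, 1 window per gene is shown so that these matches can be seen beside the windows of Klf9 and Errfi1, which had none. The Tsc22d3 window is the one with the match and the Errfi1 window is the downstream of its 2 starts. Capitals mark the half-site and each line ends at the base before the start.
Tsc22d3, chrX:140600523-140600772, minus strand: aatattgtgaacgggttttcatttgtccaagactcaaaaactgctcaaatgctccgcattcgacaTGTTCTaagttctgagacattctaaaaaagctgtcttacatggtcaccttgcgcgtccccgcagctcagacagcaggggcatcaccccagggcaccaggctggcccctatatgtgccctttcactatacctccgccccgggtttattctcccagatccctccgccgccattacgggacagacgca
Klf9, chr19:23140976-23141225, plus strand: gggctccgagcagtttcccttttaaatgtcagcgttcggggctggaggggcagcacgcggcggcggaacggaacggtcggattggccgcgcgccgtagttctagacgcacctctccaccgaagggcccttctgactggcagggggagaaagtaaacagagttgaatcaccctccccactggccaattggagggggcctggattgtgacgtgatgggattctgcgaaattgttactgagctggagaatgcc
Errfi1, chr4:150854820-150855069, plus strand: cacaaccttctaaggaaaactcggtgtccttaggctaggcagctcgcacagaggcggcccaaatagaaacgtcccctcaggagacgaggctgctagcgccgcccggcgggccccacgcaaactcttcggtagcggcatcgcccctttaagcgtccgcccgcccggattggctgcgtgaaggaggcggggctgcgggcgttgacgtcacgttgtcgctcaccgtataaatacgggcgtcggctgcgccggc
Sult1a1, chr7:126676419-126676668, minus strand: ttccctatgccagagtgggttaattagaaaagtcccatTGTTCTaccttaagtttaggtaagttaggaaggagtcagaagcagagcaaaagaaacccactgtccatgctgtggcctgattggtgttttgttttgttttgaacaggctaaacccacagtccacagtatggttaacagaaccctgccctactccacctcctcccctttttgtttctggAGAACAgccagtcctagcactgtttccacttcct
These matches are letters in a sequence and not measured binding, and the search covered the proximal window only.

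All 5 members were detected in every library. Per kilobase of exon, over the 41 libraries, the mean level was highest for Errfi1 (15.5 CPM per kb), followed by Tsc22d3 (11.04) and Klf9 (10.6), and was lower for Sult1a1 (4.73) and Zbtb16 (3.16). The order was not the same in every nucleus, since the level per kb of Klf9 was the highest in VMH (13.5, against 12.6 for Errfi1 and 11.4 for Tsc22d3) and exceeded that of Tsc22d3 in ARC (8.88 against 7.73), where Zbtb16 also exceeded Sult1a1 (4.29 against 3.15). A Tsc22d3 value rested on 69.0 to 455 reads, a Klf9 value on 48.0 to 454 and an Errfi1 value on 73.0 to 498. Zbtb16 and Sult1a1 were read from fewer, with a median of 58.0 and 24.0 reads and a lowest value of 4 reads and 1 read. Their single values therefore carry more counting error than those of the other members, and since the RNA was amplified, reads are not independent molecules.

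**Figure D1:**
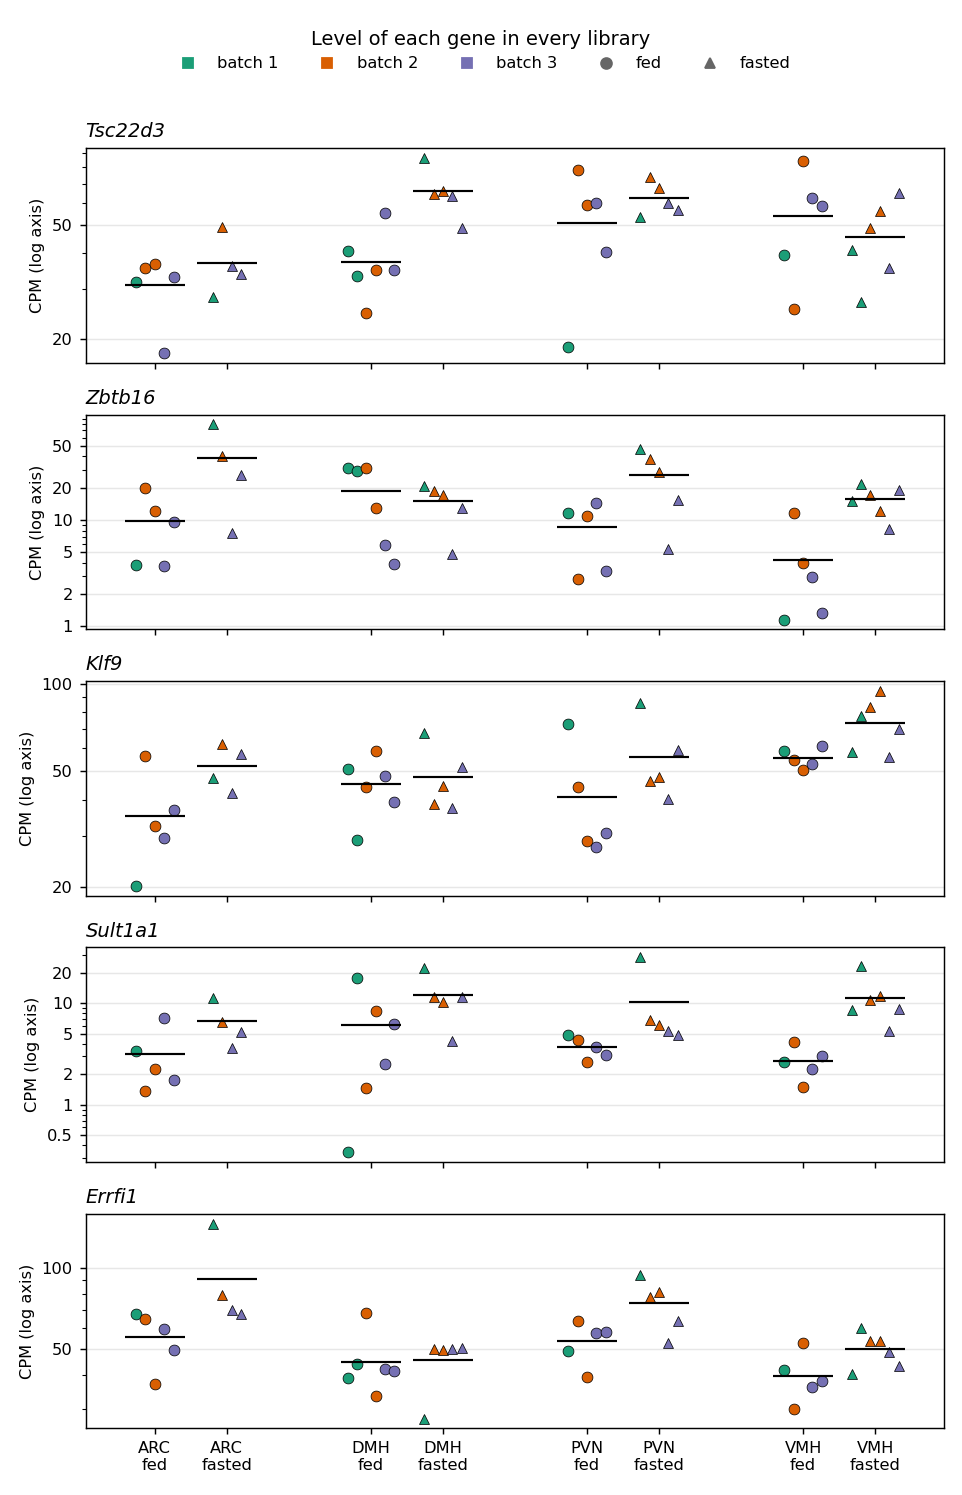
Level of each member in every library, in CPM on a logarithmic axis, by nucleus and state. Circles are fed and triangles fasted libraries, colours are batches and bars are group means. The 4 fasted Errfi1 values in ARC (67.6 to 146.3 CPM) and the 6 fasted Sult1a1 values in VMH (5.34 to 23.3 CPM) all lie above the fed values of the same nucleus.

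The members differed in where they were most abundant. Levels were compared between nuclei in 1 limma fit over all libraries, as the mean of fed and fasted, with the mouse as a block. Of the members, 4 of 5 passed the test over the 4 nuclei at an adjusted p under 0.1, as did 43.2% of all genes tested. Errfi1 averaged 71.2 ± 30.7 CPM (SD, n = 9) in ARC and 63.7 ± 16.4 CPM (n = 10) in PVN, against 45.1 ± 10.7 CPM (n = 11) in DMH and 45.3 ± 9.07 CPM (n = 11) in VMH (limma F-test, adjusted p = 0.000272). It was higher in each of ARC and PVN than in each of DMH and VMH, by 0.49 to 0.64 on the log2 scale. Klf9 was highest in VMH, at 65.2 ± 14.2 CPM, and lay at 42.8 ± 14.2 in ARC, 46.4 ± 10.8 in DMH and 48.4 ± 19.3 in PVN (adjusted p = 0.0138). The 3 lower nuclei did not differ from each other past the threshold, and the VMH excess over them was 0.47 to 0.59 on the log2 scale.

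Tsc22d3 was lowest in ARC, at 33.5 ± 8.31 CPM, and lay at 50.2 ± 18.5 in DMH, 56.7 ± 17.1 in PVN and 49.4 ± 17.9 in VMH (adjusted p = 0.0238). This call was lost when mouse Fed-308 was left out (adjusted p = 0.147). Zbtb16 was lowest in VMH, at 10.5 ± 7.45 CPM, against 22.6 ± 24.5 in ARC, 17.2 ± 10.1 in DMH and 17.7 ± 14.998 in PVN (adjusted p = 0.0293). Without batch 1 its call was lost (adjusted p = 0.191). Sult1a1 ranged from 4.75 ± 3.20 CPM in ARC to 8.84 ± 6.90 CPM in DMH, and these levels did not differ past the threshold (adjusted p = 0.687). Of all genes, 16.6% passed between ARC and PVN, 17.9% between ARC and DMH, 18% between DMH and PVN, 23.3% between DMH and VMH, 30.2% between ARC and VMH and 31.2% between PVN and VMH. The pairs past it were those of ARC with each other nucleus for Tsc22d3, those of VMH with each other nucleus for Zbtb16 and Klf9, and the 4 pairs given above for Errfi1.

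Averaged over the 4 nuclei, 4 of the 5 members rose with fasting. This is the mean over nuclei of fasted minus fed on log2(CPM + 0.5), from the same fit, and 1.52% of the 10121 genes tested rose at an adjusted p under 0.1 (3.18% changed in either direction). Zbtb16 and Sult1a1 rose by about the same amount, with a log2 change of 1.35 ± 0.25 (SE, adjusted p = 0.000959) and 1.32 ± 0.27 (SE, adjusted p = 0.00259). On the linear scale of CPM + 0.5 these are 2.55-fold (95% interval 1.79 to 3.62) and 2.50-fold (1.72 to 3.63). Errfi1 and Klf9 rose less, by 0.37 ± 0.11 (SE, adjusted p = 0.0505) and 0.40 ± 0.12 (SE, adjusted p = 0.0568), or 1.29-fold (1.12 to 1.501) and 1.32-fold (1.12 to 1.55). Tsc22d3 had a log2 difference of 0.34 ± 0.13 (SE, adjusted p = 0.2199) and did not pass. The median log2 change of the 5 members was 0.40, and over all genes tested it was 0.01. Because the members were chosen with earlier results of these data known, their contrast with all genes, here and below, is a description only.

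These calls rest on 41 libraries of 12 mice, and they were lost when each mouse entered as 1 value (described further on) and when batch was left out of the fit (adjusted p of 0.106 for Sult1a1, 0.109 for Zbtb16, 0.416 for Errfi1 and 0.417 for Klf9). The mouse correlation shared by all genes was -0.00325, so the block changed the fit little. Zbtb16 and Sult1a1 passed with any 1 mouse left out. Klf9 lost its call without mouse Fast-86, Fast-100, Fast-101, Fed-127, Fed-308 or Fast-311 (adjusted p up to 0.237), and Errfi1 without mouse Fast-86, Fast-100, Fast-101, Fed-111 or Fed-127 (up to 0.174).

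**Figure D2:**
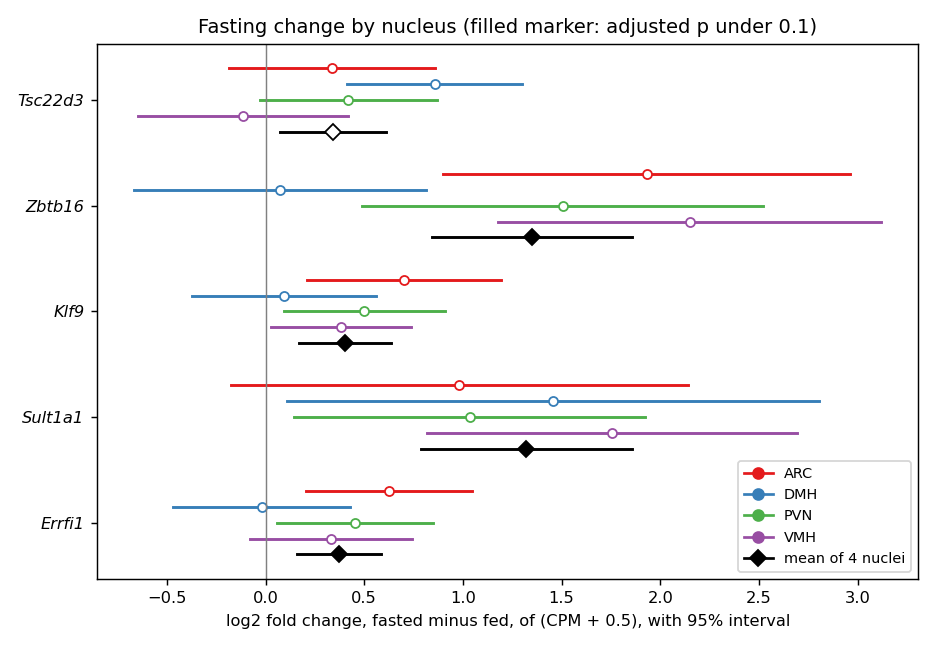
Fasting change of each member in each nucleus and as the mean of the 4 nuclei, as log2 of fasted over fed (CPM + 0.5) with its 95% interval. Filled markers passed an adjusted p of 0.1: 4 members for the mean of the 4 nuclei and 0 in a single nucleus.

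Within a single nucleus, none of the 5 members passed the limma test at an adjusted p under 0.1. Among all genes tested, 0.367% passed in PVN, 0.176% in ARC, 0.0208% in VMH and 0.0103% in DMH. At an unadjusted p under 0.05, 4 of 5 members were higher in fasted PVN (5.01% of genes), 3 in each of ARC (4.39%) and VMH (3.43%), and 2 in DMH (3.1%). No member was lower at that threshold, as 4.96% of genes were in PVN, 3.71% in ARC, 3.55% in VMH and 3.53% in DMH. The members are given below in turn, the regulators of transcription first.

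For Tsc22d3, the fasted and fed libraries lay furthest apart in DMH. The 5 fasted DMH libraries held 48.8, 63.3, 64.5, 66.1 and 86.1 CPM, and the 6 fed ones 24.7 CPM at the lowest, 34.9 at the median and 55.3 at the highest. The groups overlapped only in that mouse Fed-308 (55.3 CPM) exceeded mouse Fast-311 (48.8 CPM), and the log2 difference was 0.86 ± 0.21 (SE, adjusted p = 0.497), and 1.41 with log2 depth as a covariate. In ARC the fasted libraries held 27.97, 33.8, 36.1 and 49.4 CPM and the fed ones 17.8, 31.6, 33.05, 35.6 and 36.5 CPM, which overlap broadly, with a log2 difference of 0.34 ± 0.25 (SE, adjusted p = 0.721), and of 0.14 without mouse Fed-308. In PVN they held 53.3, 56.5, 59.9, 67.6 and 74.05 CPM against 18.7, 40.2, 58.8, 60.03 and 78.04 CPM. The fed PVN values spread more than the fasted ones and enclosed them, from mouse Fed-111 at the bottom to mouse Fed-125 at the top, and the log2 difference was 0.42 ± 0.21 (SE, adjusted p = 0.539), and 0.15 without the batch 1 library of either state. In VMH the fasted values were 26.9 CPM at the lowest, 44.97 at the median and 64.9 at the highest, within the fed range of 25.4, 39.3, 58.5, 62.2 and 84.2 CPM, with a difference of -0.11 ± 0.26 (SE, adjusted p = 0.975). Its sign turned to plus without mouse Fast-305 or mouse Fed-127, it ranged from -0.40 to 0.089 with a library left out, and with log2 depth as a covariate it was -0.39.

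Zbtb16 ranged from 1.16 to 79.7 CPM over the 41 libraries. In ARC its fasted libraries held 7.62, 26.6, 40.4 and 79.7 CPM and its fed libraries 3.73, 3.798, 9.53, 12.3 and 20.2 CPM. The highest was mouse Fast-86 of batch 1, the lowest fasted value was mouse Fast-305 of batch 3, and the log2 difference was 1.93 ± 0.49 (SE, adjusted p = 0.254). Without either batch 1 library it was 1.24, and without mouse Fast-305 it was 2.38 and passed (adjusted p = 0.0551). In VMH the 6 fasted libraries held 8.28 CPM at the lowest, 16.3 at the median and 22.05 at the highest, and the fed ones 1.16, 1.35, 2.94, 3.999 and 11.7 CPM. Only mouse Fed-125, at 11.7 CPM, reached into the fasted range there, the log2 difference was 2.15 ± 0.47 (SE, adjusted p = 0.223), and without that library it was 2.52 and passed (adjusted p = 0.0675).

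In PVN the fasted Zbtb16 values were 5.34, 15.5, 28.5, 37.4 and 46.7 CPM and the fed ones 2.796, 3.33, 10.9, 11.7 and 14.5 CPM. Mouse Fast-305 was again the lowest of its group and fell inside the fed range, and the difference was 1.51 ± 0.48 (SE, adjusted p = 0.273). With log2 depth as a covariate the PVN difference was 1.74 and passed (adjusted p = 0.0712). In DMH the states overlapped throughout, with fasted values of 4.77, 13.2, 17.1, 18.9 and 21.1 CPM, fed values of 3.899 CPM at the lowest, 21.2 at the median and 30.97 at the highest and a difference of 0.07 ± 0.36 (SE, adjusted p = 0.987). Its sign turned to minus without batch as a covariate and without mouse Fast-311, mouse Fed-127 or mouse Fed-313. Fed DMH libraries of Zbtb16 in batches 1 and 2 lay at 13.1 to 31.0 CPM and those of batch 3 at 3.90 and 5.83 CPM.

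For Klf9, the fasted VMH libraries held 56.1 CPM at the lowest, 73.8 at the median and 94.4 at the highest and the fed ones 50.7, 52.9, 54.6, 58.7 and 60.9 CPM. The fed VMH values lay close together, 4 of the 6 fasted values were above all of them, and the log2 difference was 0.38 ± 0.17 (SE, adjusted p = 0.709). In ARC the fasted values were 42.3, 47.4, 57.5 and 61.9 CPM and the fed ones 20.3, 29.7, 32.6, 36.9 and 56.4 CPM, where mouse Fed-125 alone reached the fasted range. The ARC difference was 0.70 ± 0.23 (SE, adjusted p = 0.435). In PVN the fasted values were 40.1, 46.4, 47.8, 59.3 and 85.8 CPM and the fed ones 27.5, 28.8, 30.7, 44.2 and 72.8 CPM, and the high value of each state came from batch 1 (mouse Fast-86 and mouse Fed-111). The PVN difference was 0.50 ± 0.19 (SE, adjusted p = 0.399). DMH showed no separation, with fasted values of 37.4, 38.7, 44.5, 51.8 and 67.6 CPM, fed values of 29.01 CPM at the lowest, 46.3 at the median and 58.8 at the highest and a difference of 0.10 ± 0.22 (SE, adjusted p = 0.974) whose sign turned without mouse Fast-86, without mouse Fed-92 and with array weights. With log2 depth as a covariate it was 0.40.

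Errfi1 separated the states completely in ARC, where the fasted libraries held 67.6, 69.95, 79.1 and 146 CPM and the fed ones 36.9, 49.6, 59.3, 64.7 and 67.5 CPM. Among the genes tested in ARC, 1.12% had all fasted values above all fed values. The lowest fasted value of Errfi1 exceeded the highest fed one only narrowly, the top value was that of mouse Fast-86, and the log2 difference was 0.62 ± 0.20 (SE, adjusted p = 0.424). In PVN the fasted values were 52.7, 63.7, 77.8, 81.3 and 94.2 CPM and the fed ones 39.5, 49.2, 57.6, 57.8 and 63.3 CPM, with 4 of the 5 fasted libraries above every fed one, mouse Fast-311 narrowly, and a difference of 0.45 ± 0.19 (SE, adjusted p = 0.438). In VMH they were 40.5 CPM at the lowest, 51.1 at the median and 59.7 at the highest against 29.9, 36.2, 38.1, 41.9 and 52.5 CPM, which overlap, with a difference of 0.33 ± 0.20 (SE, adjusted p = 0.802), and of 0.20 without mouse Fed-125. In DMH 4 of the 5 fasted libraries lay within 49.8 to 50.5 CPM and mouse Fast-86 at 27.6 CPM. The fed DMH libraries held 33.3 CPM at the lowest, 41.8 at the median and 68.2 at the highest, and the difference was -0.02 ± 0.22 (SE, adjusted p = 0.991). Its sign turned to plus without batch as a covariate, with array weights, and without mouse Fast-86, mouse Fed-92 or mouse Fed-125, and with log2 depth as a covariate it was -0.34.

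Sult1a1, the enzyme of the group, separated the states completely in VMH. There the fasted libraries held 5.34 CPM at the lowest, 9.79 at the median and 23.3 at the highest and the fed ones 1.4997, 2.26, 2.62, 3.04 and 4.14 CPM. Complete separation with fasted higher was seen in 0.25% of the genes tested in VMH, and the log2 difference of Sult1a1 was 1.75 ± 0.45 (SE, adjusted p = 0.386), or 3.37-fold (95% interval 1.76 to 6.47). In PVN the fasted values were 4.84, 5.34, 6.09, 6.9003 and 28.5 CPM and the fed ones 2.62, 3.09, 3.72, 4.32 and 4.89 CPM. Mouse Fast-86 stood far above the other fasted mice, which lay just above or at the top of the fed range, and the difference was 1.03 ± 0.42 (SE, adjusted p = 0.431), and 0.68 (adjusted p = 0.689) without that library or without mouse Fed-111, the other PVN library of batch 1. In ARC, PVN and VMH every fasted Sult1a1 value was above the fed median of its nucleus.

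In ARC the fasted Sult1a1 values were 3.67, 5.23, 6.62 and 11.3 CPM and the fed ones 1.36, 1.75, 2.28, 3.38 and 7.26 CPM. Mouse Fed-308 exceeded 3 of the 4 fasted mice, and the difference was 0.98 ± 0.55 (SE, adjusted p = 0.666). In DMH the fasted values were 4.27, 10.3, 11.7, 11.7 and 22.3 CPM and the fed ones 0.341 CPM at the lowest, 4.41 at the median and 17.98 at the highest. The fed DMH extremes were the 2 libraries of batch 1, mouse Fed-111 at 0.341 CPM, which is 1 read, and mouse Fed-92 at 18.0 CPM. The DMH difference was 1.46 ± 0.65 (SE, adjusted p = 0.741), 0.94 without mouse Fed-111 and 1.83 without mouse Fed-92. With log2 depth as a covariate it was 3.01 (adjusted p = 0.647).

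Whether the fasting change differed between nuclei was tested directly, with an F-test of the 3 contrasts between nuclei. None of the 10121 genes passed at an adjusted p under 0.1, and 517 (5.11%) did at an unadjusted p under 0.05. Zbtb16 was the only member among the latter (unadjusted p = 0.0209, adjusted p = 0.902), with differences of 1.51 to 2.15 in ARC, PVN and VMH and of 0.07 in DMH. It was not among them without batch 1 (unadjusted p = 0.261) or without mouse Fed-111 of that batch. Tsc22d3, whose single-nucleus difference was largest in DMH, had an unadjusted p of 0.108. For Klf9, Sult1a1 and Errfi1 the unadjusted p was 0.417, 0.745 and 0.233. A difference between nuclei was not shown for any member, and these tests do not show that the nuclei acted alike.

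The 4 nuclei and 3 batches gave 12 combinations, each with 1 or 2 libraries per state. Sult1a1 was higher in fasted mice in 12 of 12, as were 0.158% of all genes, with log2 differences of 0.23 (ARC, batch 3) to 2.53 (DMH, batch 1, where 1 of the 2 fed libraries held 1 read). Klf9 and Errfi1 were higher in 11 of 12, against 1.14% of genes at 11 or more, and the exception lay in DMH for both, in batch 2 for Klf9 (-0.30) and in batch 1 for Errfi1 (-0.57). Zbtb16 was higher in 10 of 12 (3.99% of genes at 10 or more), the exceptions being DMH in batch 1 (-0.49) and batch 2 (-0.16). Tsc22d3 was higher in 9 of 12 (11.1% of genes at 9 or more), the exceptions being VMH in batches 1 and 3 and ARC in batch 1, with values of -0.33 to -0.18. These counts are of mean log2(CPM + 0.5). By mean CPM, fasted was below fed in 3 of the combinations counted as higher, namely Sult1a1 in ARC of batch 3 (4.45 against 4.503), Errfi1 in DMH of batch 2 (49.9 against 50.8) and Tsc22d3 in VMH of batch 2 (52.6 against 54.8).

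The size of the differences was not the same in each batch. For Sult1a1 the mean over the 4 nuclei was 2.198 in batch 1, 1.48 in batch 2 and 0.68 in batch 3. Zbtb16 had a mean difference of 2.29 in batch 1, with 4.22 in ARC and 3.497 in VMH, and of 1.16 and 1.15 in batches 2 and 3. Klf9 had 0.61, 0.34 and 0.37, Errfi1 0.42, 0.46 and 0.23, and Tsc22d3 0.57, 0.46 and 0.19 in batches 1 to 3. Whether these sizes differ between batches was not tested. Without batch 1 the mean over the 4 nuclei was 1.14 for Zbtb16 (adjusted p = 0.0148), 1.06 for Sult1a1 (0.0155), 0.35 for Klf9 (0.0633), 0.34 for Errfi1 (0.0803) and 0.31 for Tsc22d3 (0.305).

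**Figure D3:**
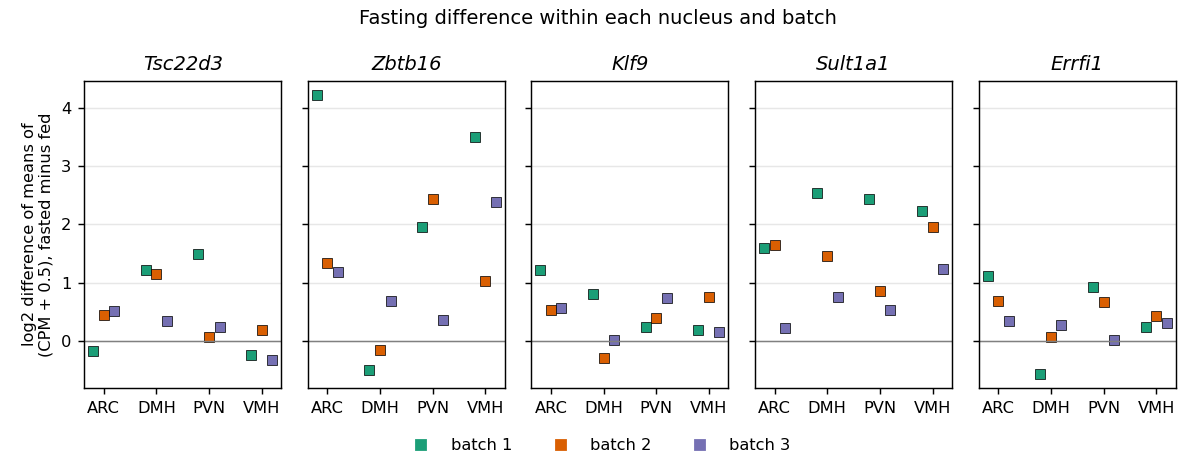
Difference between fasted and fed libraries within each nucleus and batch, as the difference of the mean log2(CPM + 0.5), with 1 or 2 libraries per state behind each square. Sult1a1 lies above 0 in all 12 squares, and the squares below 0 for Zbtb16, Klf9 and Errfi1 are in DMH.

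The libraries of 1 mouse are not independent, so the members were also reduced to 1 value per mouse, the mean of its log2(CPM + 0.5) after adjustment for nucleus. Tsc22d3 was 5.62 ± 0.22 (SD, n = 6) in fasted and 5.28 ± 0.28 (n = 6) in fed mice on this log2 scale, and in 3 of 3 batches both fasted mice lay above both fed mice. For the other 4 members this held in 2 of 3 batches, and the exception was batch 1 each time. There, mouse Fast-85 with its single VMH library was below mouse Fed-92 for Zbtb16 (4.65 against 4.72), Sult1a1 (3.10 against 4.13) and Errfi1 (5.62 against 5.76), and below mouse Fed-111 for Klf9 (5.48 against 5.54). Mice Fast-85 and Fed-92 were each read from 1 nucleus, so their values carry more error than those of the other mice. The share of all genes with such a separation of mice is not given here, so these counts describe the members only.

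The difference between fasted and fed mice was 1.12 on the log2 scale for Zbtb16 and 1.04 for Sult1a1, and it was 0.40 for Klf9, 0.34 for Tsc22d3 and 0.30 for Errfi1. In an exact 2-sided permutation test of the mice within batches, with 216 splits and a smallest possible p of 0.00926, Tsc22d3 gave p = 0.00926. The same exact test gave p = 0.0185 for each of Zbtb16, Klf9 and Errfi1 and p = 0.0463 for Sult1a1, none of them adjusted for the number of genes. This test was added after the data were seen, and the share of all genes reaching such p values is not given here. In a limma fit of the 12 mouse values across all genes, no member passed after adjustment, with adjusted p values of 0.223 for Zbtb16, 0.368 for Tsc22d3, 0.394 for Klf9, 0.415 for Sult1a1 and 0.471 for Errfi1, and 24 genes passed in all. The members' own mouse correlation, estimated gene by gene, was 0.34 for Sult1a1, 0.14 for Zbtb16, -0.01 for Klf9, -0.07 for Errfi1 and -0.17 for Tsc22d3, around a median of -0.01 over all genes. With a correlation estimated per gene, an alternative added after the data were seen, Tsc22d3 also passed (adjusted p = 0.0378) and 728 genes were called.

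**Figure D4:**
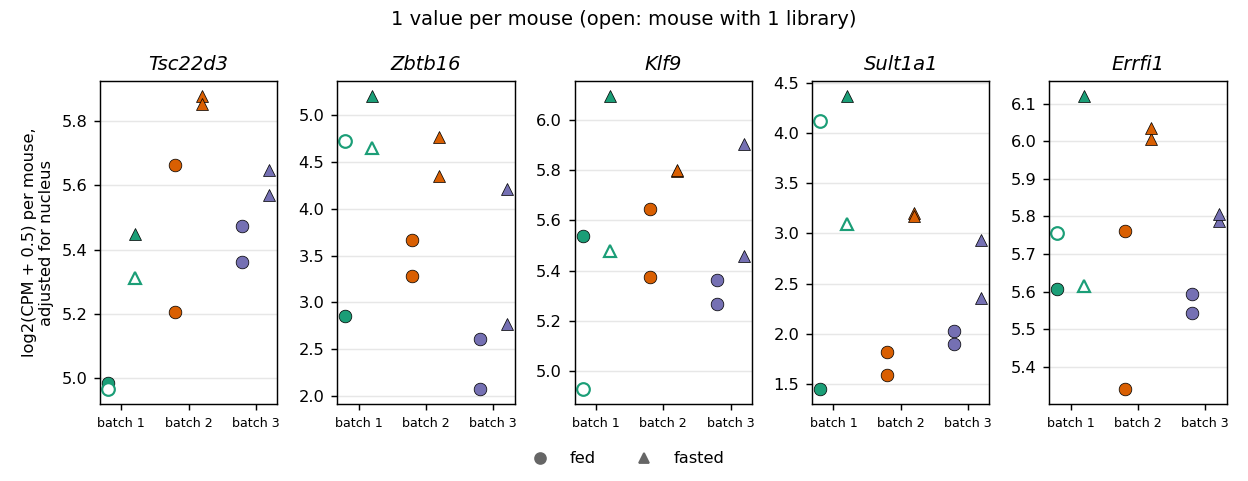
Level of each member in each mouse, as the mean log2(CPM + 0.5) over its nuclei after adjustment for nucleus, by batch (fed circles, fasted triangles, open symbols for mice with 1 library). In batches 2 and 3 both fasted mice lie above both fed mice for every member. The share of all genes with this separation is not given.

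Within groups, the correlations between members were weak. After the means of the 8 groups of nucleus and state and of the batches had been removed, Pearson's r of the 10 pairs over the 41 libraries lay between -0.19 (Tsc22d3 and Sult1a1) and 0.17 (Zbtb16 and Klf9), and Spearman's coefficient between -0.13 and 0.20. The points share mice, batches and depth, and r is a description. For each member, the 5th and 95th percentiles of r with the 10120 other genes lay between -0.34 and -0.31 and between 0.31 and 0.35, so the pairs of members fell inside the middle of the range of all genes. Leaving out 1 mouse at a time moved the pairs within -0.29 to 0.28.

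With the difference between states kept, and the nucleus and batch removed, the pairs without Tsc22d3 were all positive. They were 0.47 for Zbtb16 and Klf9, 0.41 for Zbtb16 and Errfi1, 0.40 for Zbtb16 and Sult1a1, 0.32 for Klf9 and Sult1a1, 0.30 for Sult1a1 and Errfi1 and 0.24 for Klf9 and Errfi1. The 4 pairs with Tsc22d3 were 0.01 to 0.10. The 2 sets of values differ in that the second holds the fasted minus fed difference that these genes have in common.

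**Figure D5:**
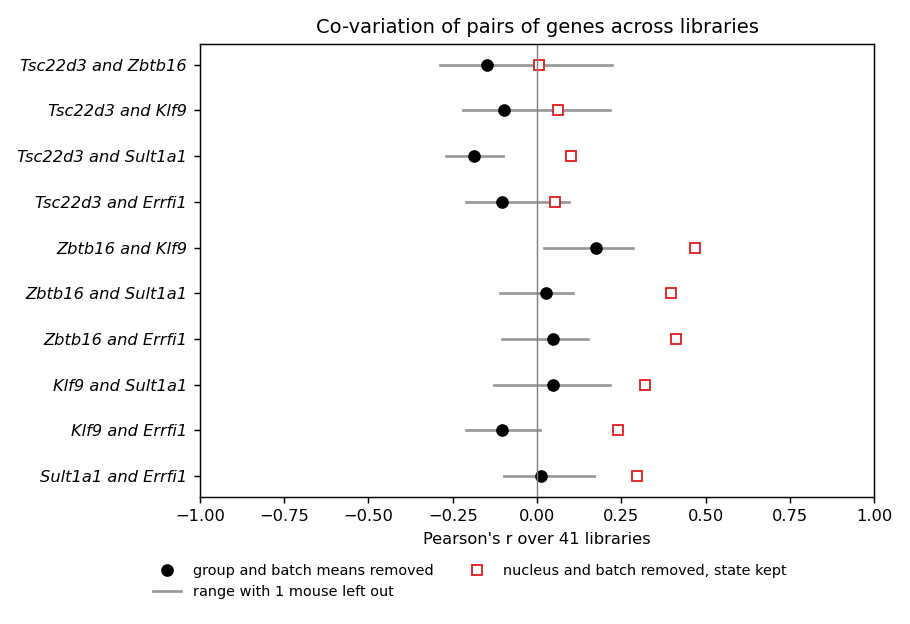
Pearson's r for each pair of members over 41 libraries, with the group and batch means removed (black, grey bar for the range with 1 mouse left out) and with the difference between states kept (red). The black points lie between -0.19 and 0.17, and the red squares of the pairs without Tsc22d3 between 0.24 and 0.47.

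The genes most like each member over the 41 libraries, by r of the same residuals among genes with a mean of at least 5 CPM, came from outside the group. For Tsc22d3 they were Zfp398 (r = 0.69), B630019K06Rik (0.66) and Atp5f1 (0.64), and for Zbtb16 they were Setd7 (0.65), Synm (0.62) and Bend3 (0.61). For Klf9 they were Plcb4 (0.68), Irs2 (0.66) and Sltm (0.65). Irs2, an adaptor of the insulin receptor, is itself among the glucocorticoid-responsive genes listed, and did not pass the fasting test (log2 difference 0.24 ± 0.13 SE, adjusted p = 0.418). For Sult1a1 they were Plekhh2 (0.71), Dzip1l (0.69) and Rexo4 (0.66), and for Errfi1 Pvr (0.68), Mvb12b (0.64) and Slc44a2 (0.62). These are the top of 7638 correlations for each member, and Mvb12b fell to 0.36 with mouse Fast-86 left out and Rexo4 to 0.43 with mouse Fed-111 left out.

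Sult1a1 was the member whose residuals moved most with the marker genes of cell types. Its r with the summed neuron markers was -0.54, with the endothelial ones 0.57, with the astrocyte ones 0.41 and with the oligodendrocyte precursor ones 0.39. Zbtb16 had 0.37 with the astrocyte sum and Errfi1 -0.47 with the microglia sum, and for each of Tsc22d3 and Klf9 the r furthest from 0 was 0.26. In the files, 2 of 6 neuron markers, 5 of 10 astrocyte markers and 6 of 10 endothelial markers were measured. Their sums were 462 to 799.6 CPM in fasted and 436 to 868 CPM in fed libraries for neurons, 159 to 509.9 CPM in fasted and 183 to 418 CPM in fed libraries for astrocytes and 62.3 to 348 CPM in fasted and 88.9 to 306 CPM in fed libraries for endothelial cells. None of the measured neuron, astrocyte or endothelial markers was at 0 in any library.

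With fasting, Agt and Gjb6, 2 of the 5 astrocyte markers, rose, with log2 changes of 0.49 ± 0.10 (SE, adjusted p = 0.00452) and 0.42 ± 0.12 (SE, adjusted p = 0.0423), and 1 of the 6 endothelial markers, Flt1, fell (-0.33 ± 0.10 SE, adjusted p = 0.07303). Of the 8 measured of 12 oligodendrocyte markers, Ugt8a fell (-0.72 ± 0.20 SE, adjusted p = 0.0505), and the list's sums were 161 to 980.0 CPM in fasted and 151 to 1003 CPM in fed libraries. Neither of the 2 neuron markers changed past the threshold. The top astrocyte and endothelial sums were both those of the fasted PVN library of mouse Fast-86, which also had the top PVN values of Zbtb16, Klf9, Sult1a1 and Errfi1. The summed mural and meningeal markers (4 of 7 measured) were 4.102 to 58.4 CPM in fasted and 5.405 to 47.9 CPM in fed libraries, with Lyve1 at 0 in 15 libraries and Lum at 0 in 13, and Lyve1 rose (1.23 ± 0.35 SE, adjusted p = 0.0468) while Lum fell (-1.12 ± 0.32 SE, adjusted p = 0.0537). Lyve1 had a mean of 11.3 CPM and a highest value of 39.5 CPM in fasted ARC, and of 10.5 and 38.6 CPM in fasted PVN. Its fasted mean was below the fed one in DMH (0.58 against 0.90 CPM) and above it in VMH (0.81 against 0.29 CPM). The top mural and meningeal sums of fasted ARC and of fasted PVN were those of mouse Fast-86. Microglia sums (6 of 10) were 62.7 to 152 CPM in fasted and 52.4 to 177 CPM in fed libraries, and oligodendrocyte precursor sums (4 of 4) were 62.5 to 121 CPM in fasted and 57.6 to 166 CPM in fed libraries. In captured tissue, more cells of a type and more RNA per cell cannot be told apart, and the part of these cell types in the members' values was not tested.

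Other genes of the pathway were described from lists chosen with earlier results of these data known. Of 40 further glucocorticoid-responsive genes 17 were measured, of which 6 rose and 0 fell in the mean of the 4 nuclei, against 1.52% and 1.66% of all genes. Their median log2 change was 0.48, against 0.01 over all genes tested. Those that rose were the metallothioneins Mt2 and Mt1, at 0.98 ± 0.11 (SE, adjusted p = 1.59e-07) and 0.80 ± 0.11 (SE, adjusted p = 2.80e-06), Txnip, an inhibitor of thioredoxin (0.93 ± 0.23 SE, adjusted p = 0.0194), and Tsc22d4, a relative of Tsc22d3 (0.52 ± 0.16 SE, adjusted p = 0.0748). The others were Rhou (0.48 ± 0.13 SE, adjusted p = 0.0391), and Foxo1, a forkhead factor restrained by insulin signalling (0.34 ± 0.10 SE, adjusted p = 0.0531). The log2 changes of Zbtb16 and Sult1a1 were thus above those of Mt1 and Mt2, and the differences between these genes were not tested. In single nuclei Mt2 and Foxo1 rose in ARC, where 0.104% of genes did, and Mt1, Mt2 and Rasd1, a Ras-like GTPase, rose in PVN, where 0.304% did.

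Of 25 genes of the receptor and its handling, 9 were measured, of which 0 rose and 2 fell. The 2 were Fkbp4 and Ptges3, cochaperones of the receptor complex with HSP90, at -0.31 ± 0.07 (SE, adjusted p = 0.00442) and -0.27 ± 0.07 (SE, adjusted p = 0.0449). Nr3c2, the mineralocorticoid receptor, which also binds corticosterone, had 34.3 ± 11.8 CPM (SD, n = 20) in fasted and 33.7 ± 10.9 CPM (n = 21) in fed libraries and a log2 difference of 0.00 ± 0.13 (SE, adjusted p = 0.9996). Nr3c1, the glucocorticoid receptor, and Hsd11b1, which regenerates active hormone, were not analysed here. Among 11 measured Krüppel-like factors, Klf9 and Klf13 rose (0.41 ± 0.12 SE, adjusted p = 0.0658 for Klf13) and 0 fell, and among 10 measured BTB zinc finger genes Zbtb16 rose and Zbtb1 fell (-0.45 ± 0.14 SE, adjusted p = 0.0748). Sult1a1 was the only measured sulfotransferase of its list of 10. The receptors Erbb2 and Erbb4, targets of MIG6, had log2 differences of 0.60 ± 0.32 (SE, adjusted p = 0.413) and -0.12 ± 0.08 (SE, adjusted p = 0.5603) and did not pass. Of 13 genes of the hypothalamic-pituitary-adrenal axis 4 were measured, and none passed in the mean of the 4 nuclei. Crh, the releasing hormone made in PVN, ranged from 14.5 to 126 CPM in 5 fasted and from 24.3 to 39.4 CPM in 5 fed PVN libraries, with a log2 difference of -0.0076 ± 0.29 (SE, adjusted p = 0.998).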

How the data were processed

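RNA of 4 laser-captured hypothalamic nuclei of fed and 24-hour fasted male Snord116+/-P mice was amplified (Ovation RNA-Seq V2) and sequenced as single-end reads. Per the submitters' processing notes and the study's methods, the authors mapped reads to GRCm38 with TopHat2 2.0.11, used edgeR and limma, and left out outlier libraries, which can lower the spread between replicates. The notes also list CASAVA 1.7 and Cufflinks 2.2.1 with no role. Which program counted the reads per gene, and whether by strand, is not given in the sources used here. The authors deposited CPM per Ensembl gene for 10127 genes, of which 9891 had a symbol in GENCODE M21. Nucleus, state and mouse number tied 41 columns to samples. A further 2 columns, named for ARC of mice Fast-85 and Fed-92, whose labels give PVN, could not be tied to a sample and were left out, so that 2 of 43 samples were not analysed here.

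The CPM of the genes given summed to 554896 to 689010 per library. Depth was read from the step of 1 read, of which 97.7% to 98.7% of low values were whole multiples (tolerance 0.1 reads), but 101 genes held values under 0.01 CPM, so no count test was run.

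Tests were made with limma 3.58.1 in R 4.3.3 on log2(CPM + 0.5), which understates changes of low genes, for genes that reached 1 CPM in at least as many libraries as the smaller state held. Nuclei were fitted separately with batch as covariate (eBayes with trend, 2-sided). The fit over all libraries held 8 group means, batch and the mouse as a random block. Its correlation, shared by all genes, was -0.00325, so nuclei of the same animal entered almost as independent libraries. P values were adjusted by Benjamini-Hochberg over all genes tested, with a threshold of 0.1. Levels per kilobase used the union of annotated exons. Promoter windows are RefSeq's. Named genes were the 5 members, the listed genes past the threshold, Nr3c2, and the 3 genes most like each member. Erbb2, Erbb4, Crh, Irs2 and Sgf29 were named after their values were seen. The members and lists were chosen with earlier results of these data known. Alternatives covered the pseudocount, filter, scaling, covariates, weights, block and left-out libraries or mice. The correlation per gene, the exact permutation of mice and a fit of mice with 3 or more libraries were added after the data were seen. The fits were tested on simulated data. Changed genes were drawn from those with a mean of at least 5 CPM in every nucleus, which left out Sult1a1 (4.75 CPM in ARC). The spread between libraries and between mice was set in advance and not taken from the members. The rates below hold for that setting and are not recovery rates of the members. With 200 genes changed by fasting, the mean of the 4 nuclei recovered 94% of 1.5-fold changes, with 36 false calls. Single nuclei recovered 13.4% (ARC) to 34.3% (PVN) of 1.5-fold changes, with 7 (ARC) to 21 (DMH) false calls. With 1 value per mouse, 76.1% were recovered, with 7 false calls.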

Additional observations from a re-analysis of the deposited data

Results flagged for a closer look

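In groups of 4 to 6 libraries, a library was marked when its gap to the nearest other library was a large share of the range of its group (Dixon's 95% critical value). Of 40 groups of member, nucleus and state, 3 were marked, and chance marks about 2 of 40. Tsc22d3 in fed ARC was marked for the low value of mouse Fed-308, at 17.8 CPM against 31.6 to 36.5 CPM in the other 4 fed mice. Sult1a1 in fasted PVN was marked for the high value of mouse Fast-86, at 28.5 CPM against 4.84 to 6.90 CPM, and this mouse had the highest fasted Sult1a1 value in each of the other 3 nuclei as well. Errfi1 in fasted DMH was marked for the low value of the same mouse, at 27.6 CPM against 49.8 to 50.5 CPM, while its Errfi1 values in ARC, PVN and VMH were the highest of their groups.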

How the results depend on the processing

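For the mean of the 4 nuclei, the differences of all 5 members stayed positive under every alternative run. Each of the 4 calls was lost without batch as a covariate, with differences of 1.31 for Zbtb16, 1.28 for Sult1a1, 0.40 for Klf9 and 0.37 for Errfi1, and with 1 value per mouse, with 1.12, 1.04, 0.40 and 0.30. Tsc22d3 passed only with a mouse correlation estimated per gene (0.34), chosen after seeing the data. Leaving out a mouse gave 0.32 to 0.47 for Klf9 and 0.30 to 0.41 for Errfi1. Without the mouse block the between-nuclei calls did not change, with an adjusted p of 0.000267 for Errfi1, 0.0136 for Klf9, 0.0236 for Tsc22d3, 0.0290 for Zbtb16 and 0.686 for Sult1a1, and the mean fasting changes were 1.35 for Zbtb16 and 1.32 for Sult1a1. No paired analysis was possible for fasting because fasted and fed groups share no mouse. The level call of Zbtb16 was lost without batch 1 (adjusted p = 0.191), and that of Tsc22d3 ranged from 0.00408 to 0.147 with a mouse left out.

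In DMH, signs near 0 turned. Zbtb16 was -0.10 and Errfi1 0.031 without batch as a covariate, and Klf9 was -0.045 and Errfi1 0.12 with array weights. With depth as a covariate the differences were 1.41 for Tsc22d3, 0.40 for Klf9, -0.34 for Errfi1 and 3.01 for Sult1a1 in DMH and -0.39 for Tsc22d3 in VMH. With a library left out the DMH differences ranged from -0.21 to 0.28 for Zbtb16, -0.14 to 0.21 for Klf9 and -0.18 to 0.16 for Errfi1, and the VMH difference of Tsc22d3 from -0.40 to 0.089. Zbtb16 passed in PVN with depth as a covariate (1.74), and with a library left out ranged from 1.24 to 2.38 in ARC and 1.699 to 2.52 in VMH, passing at the top of each. The causes were not tested. Counts over all genes moved more, from 322 for the mean of the 4 nuclei to 14 without batch, 24 with 1 value per mouse, 493 with array weights and 728 with a correlation per gene, and to 149 to 327 with a mouse left out (149 without mouse Fast-100, 187 without Fed-308 and 191 without each of Fast-101 and Fed-127). In PVN 35 genes passed, against 3 without batch, 55 with depth and 79 with array weights, and in ARC 17 passed, against 0 without batch, 4 with a pseudocount of 0.1 and 5 with no filter. In DMH and VMH 1 and 2 passed, and 0 to 2 and 1 to 5 under these alternatives. With a library left out the counts were 2 to 31 in PVN, 3 to 23 in ARC, 1 to 5 in VMH and 1 to 2 in DMH. Scaling by quantiles or median ratios moved the median of all genes by under 0.1. Depth limits single values of Zbtb16 and Sult1a1, the lowest of which rest on 4 reads and 1 read.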
